A study of Mus musculus with 70 samples.

Results

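The Ikaros zinc finger family was followed in the mouse bone marrow, across the progenitors that give rise to innate lymphoid cells (ILC), which are lymphocytes of tissues without rearranged antigen receptors. Its members were the rows of both deposited count tables whose Entrez identifiers map to Ikzf1 (22778, Ikaros), Ikzf2 (22779, Helios), Ikzf3 (22780, Aiolos), Ikzf4 (22781, Eos) and Ikzf5 (67143, Pegasus). All 5 were found among the 27179 genes of the tables, and 4 passed the filter on low counts. Ikzf4 did not pass it and is given as counts only.

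Each sample held 100 cells sorted from bone marrow, read by CEL-seq, which counts a tag near the 3′ end of polyadenylated RNA. Sorted populations comprised CLP (common lymphoid progenitors, as the name is usually read), a4b7_CLP (CLP that carry α4β7 integrin), CILP (progenitors common to innate lymphocytes), ILCP, and ILC2P (progenitors of group 2 ILC). The labels tie ILCP to no sort gate. Wild-type (WT) groups held 8 CLP, 5 a4b7_CLP, 7 CILP, 3 ILCP and 8 ILC2P libraries. Tcf7 knockout mice, without the transcription factor TCF-1, gave 5 CLP, 4 CILP and 2 ILC2P libraries. Knockout mice for Id2, whose product blocks E proteins, gave 2 CLP, 2 CILP and 1 ILCP library. The labels call both genotypes knockouts and give no strain, age, sex, allele design or number of animals, so p-values measure the spread between these samples, which may in part be technical. The 47 libraries came in 2 batches, of 22 and 25. Batch 1 held every Id2 knockout library, and batch 2 held both Tcf7 knockout ILC2P libraries.

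Ikaros family proteins are lymphoid transcription factors that bind DNA through a cluster of zinc fingers near the amino terminus and pair with each other through fingers at the carboxyl terminus. They recruit chromatin complexes, among them NuRD, which remodels nucleosomes and removes histone acetyl groups. Ikaros is needed for lymphoid development from early progenitors on. Helios is best known in regulatory T cells and in early T and ILC progenitors, Aiolos in B cells, T cells and mature ILC, and Eos in regulatory T cells. Pegasus is the most divergent member and recognizes other DNA motifs. Drugs related to thalidomide direct Ikaros and Aiolos to the CRL4 ubiquitin ligase through its substrate receptor cereblon, and the contact lies in the second zinc finger.

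The second finger, counted in order along each protein, is shown for all members because it takes part in contact with DNA. The sequences are the coding strand, 5′ to 3′, in the GENCODE M21 annotation of GRCm38, with the codons of the cysteines and histidines that hold zinc in capitals.
Ikzf1: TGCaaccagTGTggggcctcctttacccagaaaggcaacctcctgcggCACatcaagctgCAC
Ikzf2: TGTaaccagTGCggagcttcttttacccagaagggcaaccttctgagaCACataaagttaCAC
Ikzf3: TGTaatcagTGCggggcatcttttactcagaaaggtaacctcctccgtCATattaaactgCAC
Ikzf4: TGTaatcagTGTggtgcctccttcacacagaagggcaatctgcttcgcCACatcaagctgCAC
Ikzf5: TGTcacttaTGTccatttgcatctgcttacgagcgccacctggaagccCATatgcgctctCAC
They lie in exon 6 of Ikzf1 at chr11:11754024-11754086 (plus strand), exon 5 of Ikzf2 at chr1:69570581-69570643 (minus), exon 5 of Ikzf3 at chr11:98488940-98489002 (minus), exon 5 of Ikzf4 at chr10:128640229-128640291 (minus) and exon 4 of Ikzf5 at chr7:131392501-131392563 (minus). Over these 63 bases Ikzf1 was 81.0% identical to Ikzf2, 81.0% to Ikzf3 and 84.1% to Ikzf4, but 41.3% to Ikzf5. Fingers were paired by order alone, and the pattern used matched 6 fingers in Ikzf1, Ikzf2 and Ikzf3 but 5 in Ikzf4 and Ikzf5. Whether the Ikzf5 finger shown corresponds to the second finger of the others was not tested, so the 41.3% is no measure of kinship.

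The likeness between members rarely extends to long identical stretches: of all 30-base words in the annotated exons, 4 were shared between Ikzf2 and Ikzf4 and 0 between any other pair. The exons of Ikzf2 overlap an antisense transcript (Gm29114), those of Ikzf4 overlap Gm26876, and those of Ikzf5 overlap Pstk and Gm44624, all on the other strand. The sources used here do not say whether counting used the strand, so tags from those partners cannot be told apart from the member's own. Ikzf1 and Ikzf3 exons overlap no other annotated gene's exons.

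Levels are CPM, counts scaled to a common library size after TMM normalization, and differences are fitted log2 fold changes with their standard errors (SE). A gene was called at an adjusted p under 0.05 (edgeR's quasi-likelihood test, Benjamini-Hochberg over 10972 genes). Library totals ran from 19322 to 624668 counts with a median of 134985. Of the 2 targeted genes, Tcf7 was at 444.7 ± 253.3 CPM (SD, n = 7) in WT CILP and 31.12 ± 26.21 (n = 4) in the knockout, and Id2 was at 915.5 ± 766.1 in WT CILP and 71.78 ± 63.14 (n = 2) in the knockout. The lowest WT CILP library in Id2 (79.63 CPM, batch 2) lay below the higher knockout library (116.4), but in batch 1, which holds the knockouts, WT CILP ran from 1084 to 2286. In WT CLP both are low, and Tcf7 is also low in WT ILC2P (18.06 ± 27.14 CPM, n = 8), so these populations do not check the labels: Tcf7 was at 26.69 ± 37.75 (n = 2) in knockout ILC2P, with 1 library at 53.38, and at 11.95 ± 11.95 (n = 5) in knockout CLP against 1.021 ± 2.888 in WT. Markers of other cells stood out in a few knockout libraries and are given beside the results they touch. In bulk samples, fewer cells of a type and less RNA per cell cannot be told apart.

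Ikzf1, the founding member, was present in all 47 libraries and was not called in any comparison. In WT libraries it ran from 250.8 to 958.3 CPM in CLP, from 418.1 to 879 in a4b7_CLP, from 106.9 to 515.7 in CILP, from 193.9 to 614.2 in ILCP and from 34.5 to 536.4 in ILC2P. The order by mean was a4b7_CLP at 625.1 ± 194.3 CPM (SD, n = 5), CLP at 551 ± 252.8 (n = 8), ILCP at 473.4 ± 242.1 (n = 3), ILC2P at 380.7 ± 182.8 (n = 8) and CILP at 311.3 ± 152.5 (n = 7). All neighbours in this order overlapped. The lowest value, 34.5 CPM in ILC2P, rested on 1 count in the shallowest library, whose marker shares are given below with Ikzf3. Against CLP, Ikzf1 in CILP differed by -0.78 ± 0.44 (SE) on the log2 scale (adjusted p = 0.382, edgeR), and against a4b7_CLP by -0.96 ± 0.49 (adjusted p = 0.349).

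Ikzf2 showed the widest range of levels. WT CLP held between 22 and 84.3 CPM with a mean of 45.51 ± 20.96 (SD, n = 8), and every library had counts. The 5 a4b7_CLP libraries stood at 96.1, 28.7, 426.3, 12.4 and 89.5 CPM. Replicate 3 lay far above the rest. Its innate lymphoid progenitor marker share (0.0208%) was within the range of its group (0.00376 to 0.036%), while its CLP marker share was the lowest (0.336%, against 0.673 to 0.785%), as was its α4β7 integrin share (0.0344%), and its plasma cell share the highest (0.0256%). Their part in the value was not tested. In CILP the libraries of batch 2 stood at 3082, 1784.1, 912.3 and 4407 CPM and those of batch 1 at 664.9, 1195.8 and 1006. The lowest CILP library was above the highest CLP and a4b7_CLP libraries. The 3 ILCP libraries stood at 533.3, 727 and 479.5 CPM, and ILC2P ran from 326 to 826.6 with a mean of 541.6 ± 170.4 (n = 8). The order by mean was thus CILP, ILCP, ILC2P, a4b7_CLP and CLP. CILP and ILCP overlapped (1 CILP library at 664.9 below 1 ILCP library at 727), as did ILCP and ILC2P, ILC2P and a4b7_CLP through the 1 high library, and a4b7_CLP and CLP.

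Ikzf3 was not detected in WT CLP, with 0 of 1193976 counts over 8 libraries, which allows up to 2.69 CPM. Of the a4b7_CLP libraries, 4 of 5 were also at 0 and replicate 4 held 6 counts, or 37.1 CPM. That library also had the highest shares of myeloid (0.827%) and dendritic (0.712%) marker counts of its group, whose part in the value was not tested. All 7 CILP libraries had Ikzf3 counts, at 487, 290.1, 119 and 144.6 CPM in batch 2 and 166.2, 125.9 and 329.2 in batch 1. The 3 ILCP libraries stood at 49.4, 133.3 and 143 CPM. In ILC2P 7 of 8 libraries had counts, from 0 to 880 CPM with a mean of 262.6 ± 278.7. The library at 0 was the shallowest, with 19322 counts in all. It also had the highest myeloid (0.419%) and erythroid and megakaryocyte (0.0932%) marker shares of its group. Its innate lymphoid progenitor (0.0466%) and group 2 (0.238%) marker shares were the lowest, and the part of these was not tested. The library at 880 was the next shallowest, with 33 Ikzf3 counts in 26072. That library also had the highest B lineage marker share of its group (0.207%, against at most 0.0362%), whose part was not tested, and without it the ILC2P mean was 174.4 ± 134.3 CPM (SD, n = 7). CILP, ILCP and ILC2P overlapped, and all 3 stood above CLP except for the ILC2P library at 0.

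**Figure D1:**
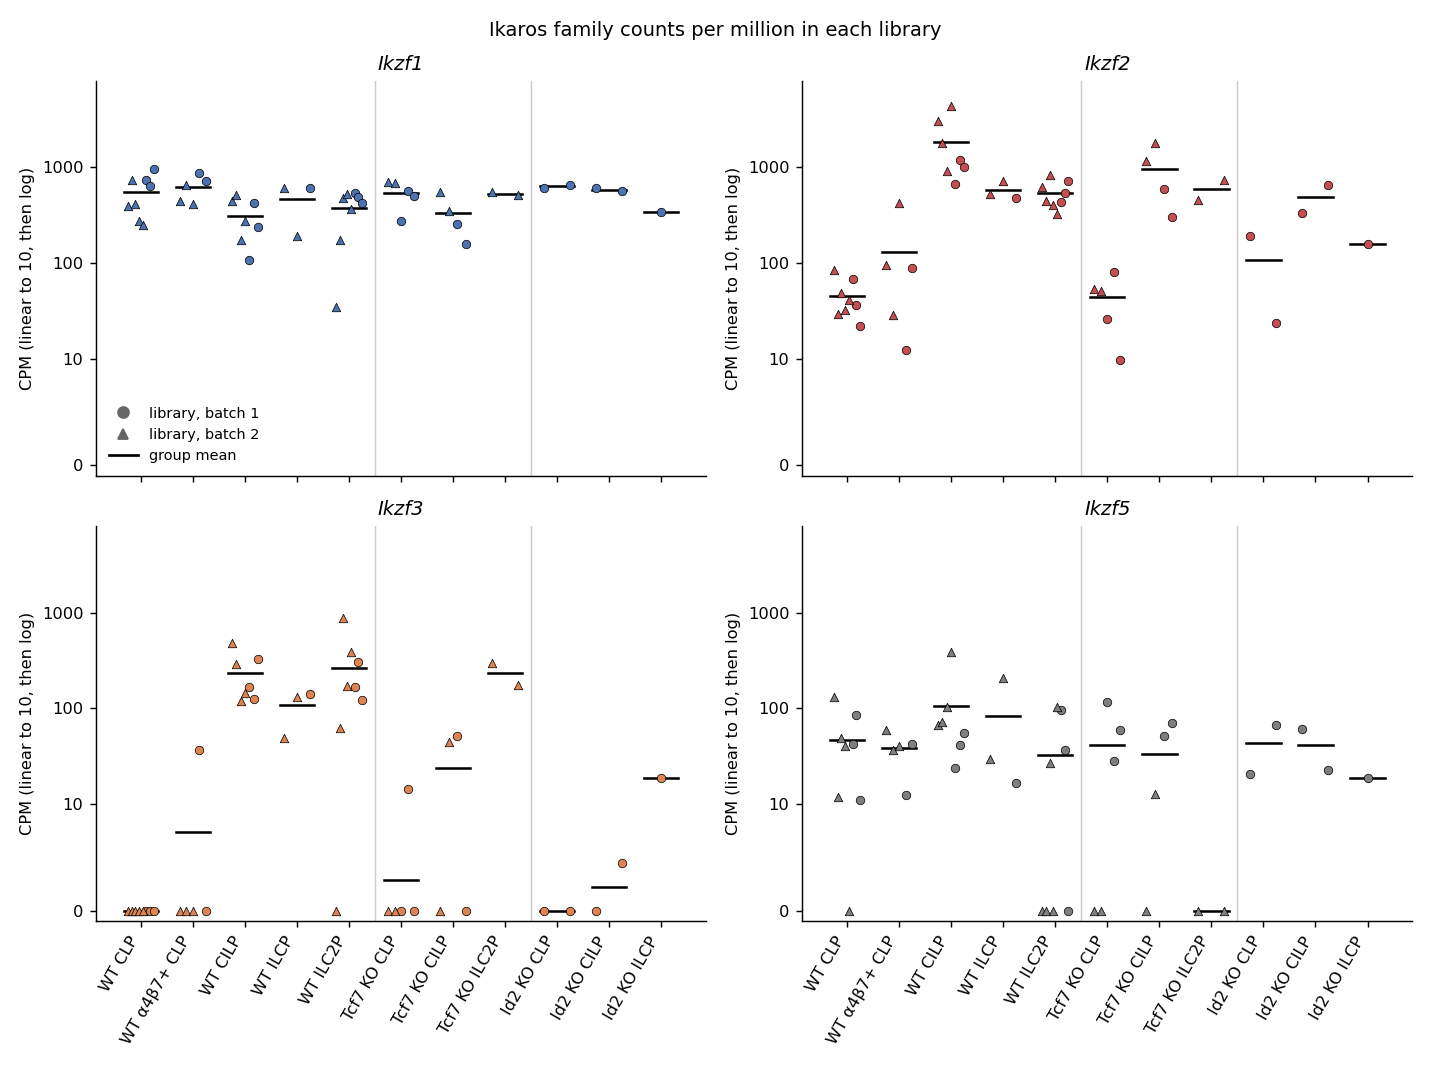
CPM of the 4 tested members (vertical axis, linear to 10 and logarithmic above) in each of the 47 libraries, by genotype and population; circles are batch 1, triangles batch 2 and bars group means. Ikzf2 in WT CILP lay between 664.9 and 4407 CPM against 22 to 84.3 in WT CLP, and Ikzf3 was at 0 in all 8 WT CLP libraries and above 100 CPM in all 7 WT CILP libraries.

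Technical replicates of 1 CILP sample show the spread of such a level between them. Replicate 1 was the sum of 3 deposited samples, the later of which the labels call technical replicates of the first. The labels do not say which step was repeated, and the 3 are called runs here. Its Ikzf3 counts were 90 of 169683 (530 CPM on run totals, exact 95% binomial interval 427 to 652), 1 of 85470 (11.7, 0.296 to 65.2) and 40 of 77362 (517, 369 to 704). Ikzf2 in the same runs stood at 2960 (2710 to 3230), 1350 (1110 to 1610) and 2740 CPM (2380 to 3130), and Ikzf1 at 283, 433 and 439. The middle run was therefore low in both Ikzf3 and Ikzf2 beyond counting error. The first and last runs agreed within it for both genes. Intervals cover counting error only, since no molecular identifiers are stated.

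Ikzf4 and Ikzf5 were the low members. Ikzf4 had counts in 2 of 47 libraries, 1 in WT CILP replicate 2 and 6 in WT ILCP replicate 1, and 0 in the rest. Ikzf5 stood at 46.37 ± 43.46 CPM (SD, n = 8) in WT CLP, 38.55 ± 17.14 (n = 5) in a4b7_CLP, 106.9 ± 125.4 (n = 7) in CILP, 84.14 ± 105.7 (n = 3) in ILCP and 32.86 ± 43.6 (n = 8) in ILC2P. It was called in no comparison, and all of these groups overlapped. The CILP mean rests on replicate 4, at 385.6 CPM against at most 103.1 in the other CILP libraries.

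CILP were compared with CLP to ask what changes as lymphoid progenitors become committed to innate fates. Ikzf2 and Ikzf3 were both higher in CILP, and Ikzf1 and Ikzf5 were not called. Ikzf2 averaged 1865 ± 1383 CPM (SD, n = 7) against 45.51 ± 20.96 (n = 8), a fitted log2 difference of 5.25 ± 0.53 (SE; adjusted p = 3.47e-13, edgeR). Ikzf3 averaged 237.4 ± 137.6 CPM against 0, which is at least 88.4-fold higher when CLP is set at 3 counts over the group (adjusted p = 5.94e-07). Both differences were present in each batch on its own, with Ikzf2 at 4.45 in batch 1 (adjusted p = 1.49e-08) and 5.72 in batch 2 (2.28e-08). Across all genes, 4.31% were called in this comparison. CILP also held mast and basophil markers (0.00473 to 0.511% of counts, against 0 in CLP), natural killer markers (0.0068 to 0.0286% of counts, against 0 in CLP) and of mature T cell markers (0.000632 to 0.0379%), whose part in these differences was not tested.

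The same 2 members were higher in CILP than in a4b7_CLP, a comparison that shares the CILP libraries with the one above. Ikzf2 differed by 3.9 ± 0.6 (adjusted p = 2.51e-06, edgeR) and Ikzf3 by 5.08 ± 1.16 (adjusted p = 0.00428), where 2.35% of genes were called. The Ikzf3 difference fell short of the threshold in batch 1 alone (3.55, adjusted p = 0.329), the batch that holds the a4b7_CLP library with 6 counts. Without that library a4b7_CLP was at 0 throughout and the call was kept (adjusted p = 0.000281, edgeR). Between a4b7_CLP and CLP no member was called, against 0.0456% of all genes. Members with an unadjusted p under 0.05 there numbered 2, and DESeq2 and limma-voom also called 0. The Ikzf2 difference was 1.35 ± 0.52 (adjusted p = 0.424), and it was 0.37 without the library at 426.3 CPM.

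Both members were also higher in ILC2P than in CLP. Ikzf2 was higher by 3.6 ± 0.5 (adjusted p = 4.06e-08, edgeR), and Ikzf3 was at least 97.8-fold higher (adjusted p = 1.78e-07), where 11.5% of genes were called. Ikzf1 differed by -0.51 ± 0.42 (adjusted p = 0.474). When only the ILC2P and CLP libraries were fitted, Ikzf3 did not pass the count filter, which left Ikzf2 as the member called.

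From CILP to ILC2P, Ikzf2 was the member that fell and Ikzf3 was not called. Ikzf2 averaged 541.6 ± 170.4 CPM in ILC2P against 1865 ± 1383 in CILP, a log2 difference of -1.65 ± 0.46 (adjusted p = 0.0214, edgeR), where 5.32% of genes were called. The groups overlapped, since 1 CILP library (664.9 CPM) lay below the highest ILC2P value (826.6). All genes together had a median of -0.55 here, which moved by 0.32 with DESeq2's size factors and by 0.26 on library totals. The call was lost with DESeq2 (-1.18, adjusted p = 0.084), on library totals without TMM (-1.32, 0.0752), in batch 1 alone (-0.79, 0.508) and without CILP replicate 4 (-1.37, 0.0797), and over the 27 alternatives the adjusted p ran from 0.00544 to 0.508. Ikzf3 averaged 262.6 CPM in ILC2P and 237.4 in CILP (adjusted p = 0.975).

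ILCP did not differ from either neighbour by a called member, in 3 libraries. Against CILP the Ikzf2 difference was -1.64 ± 0.65 (adjusted p = 0.337, edgeR) and the Ikzf3 difference -1.16 ± 1.1 (adjusted p = 0.774), where 0.374% of genes were called. With 1 member at an unadjusted p under 0.05 in ILCP against CILP, DESeq2 and limma-voom also called 0. ILC2P against ILCP gave 0 members by all 3 tools and 0 at an unadjusted p under 0.05, where 0.483% of genes were called. ILCP replicate 1 had 1.11% of its counts from erythroid and megakaryocyte markers and the highest natural killer marker share of its group (0.0564%). It held the lowest Ikzf3 value of the 3 (49.4 CPM), while its Ikzf1 (612.3) and Ikzf2 (533.3) lay between those of the other libraries. The part of these markers was not tested.

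**Figure D2:**
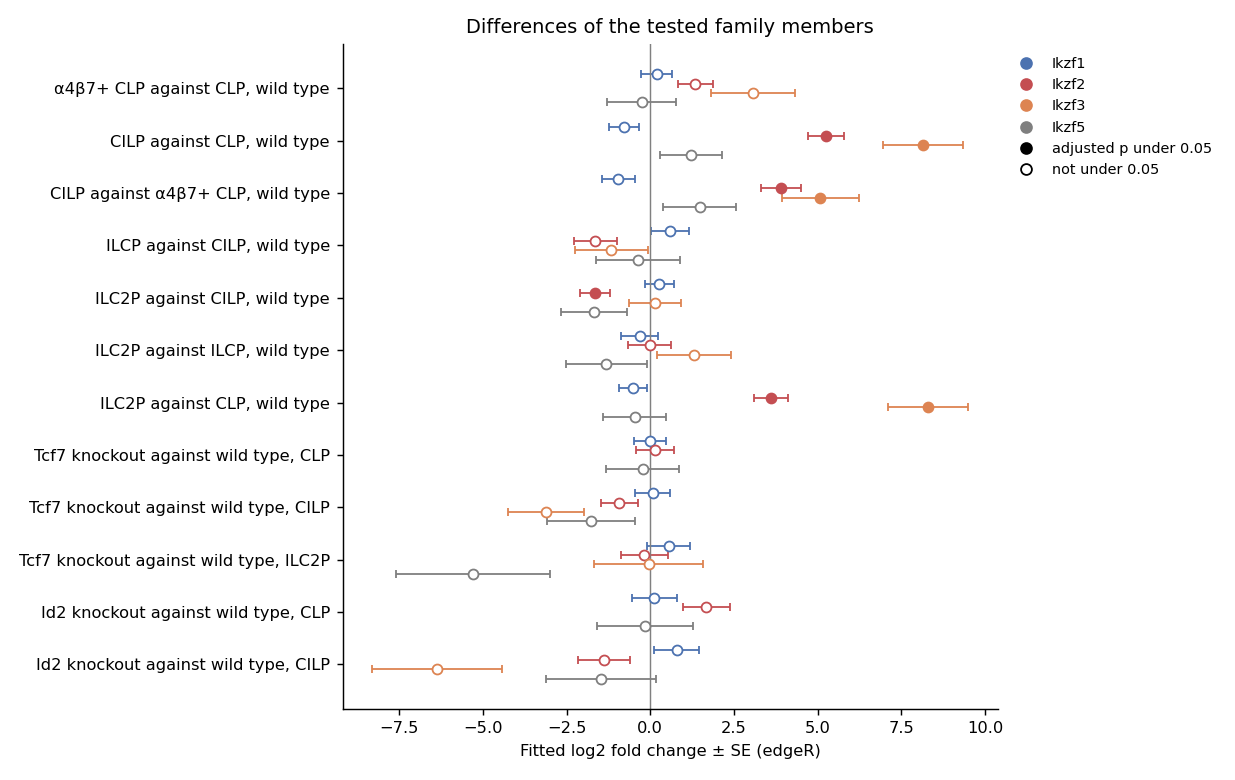
Fitted log2 fold changes with SE (horizontal axis) of Ikzf1, Ikzf2, Ikzf3 and Ikzf5 in 12 comparisons (rows); filled points have an adjusted p under 0.05. The filled points are Ikzf2 and Ikzf3 in CILP and ILC2P against CLP and in CILP against a4b7_CLP, and Ikzf2 below 0 in ILC2P against CILP. Ikzf3 is not drawn for knockout CLP, where both groups had at most 3 counts in all, and fitted values against a group at 0 (Ikzf3 against WT CLP, Ikzf5 in Tcf7 knockout ILC2P) depend on the prior count and are no measure of size.

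The make-up of the family's tags also differed between populations. These shares are of 3′ tags within a library and so need no scaling, and they are given as a description. Ikzf1 made up a median of 84.8% of the family's counts in WT CLP (65 to 96.7%) and 13.3% in CILP (5.28 to 23.8%), with no overlap. Ikzf2 made up 8.65% in CLP (2.22 to 14.3%) and 69.1% in CILP (61.8 to 84.5%). In ILC2P the medians were 32.3% for Ikzf1, 38.3% for Ikzf2 and 14.5% for Ikzf3. In a4b7_CLP the Ikzf1 share was a median of 84.5%, with replicate 3 apart from the others at 47.2%.

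**Figure D3:**
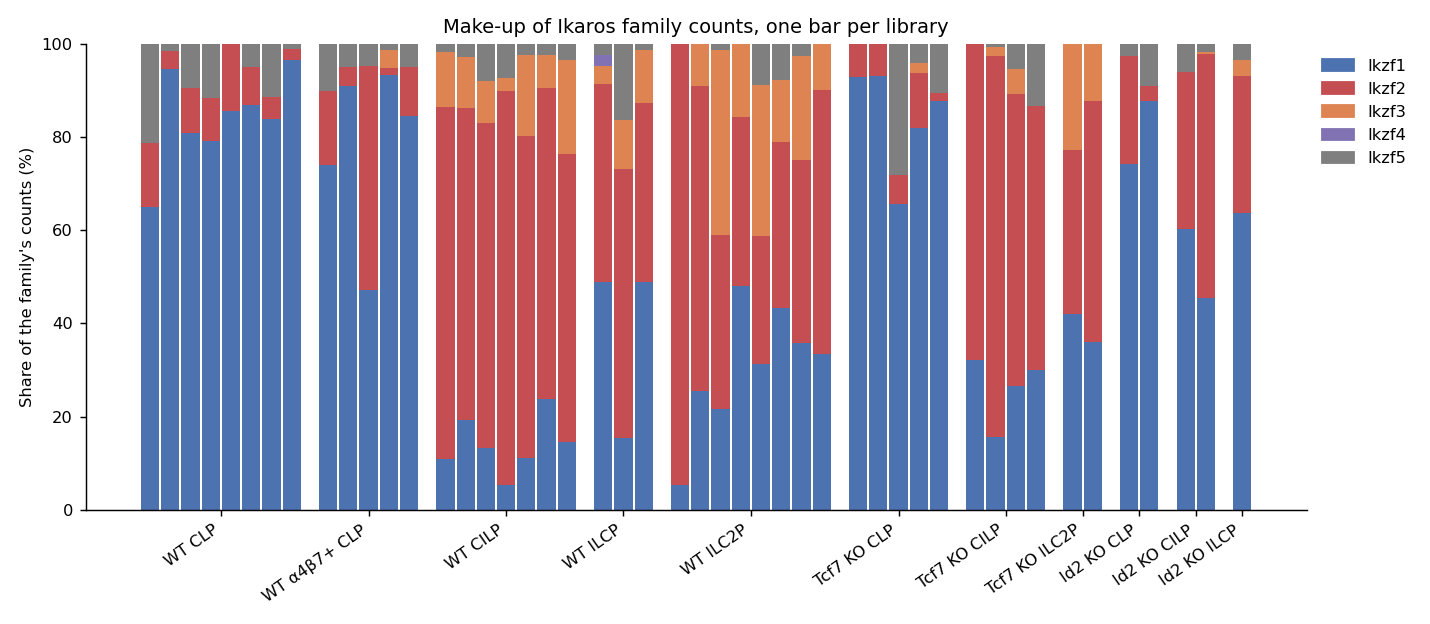
Share of the family's counts (vertical axis, percent) taken by each member, 1 bar per library, grouped by genotype and population. Ikzf1 fills most of each WT CLP bar (65 to 96.7%), and Ikzf2 fills most of each WT CILP bar (61.8 to 84.5%).

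In CILP without Tcf7, Ikzf3 was below every WT library but did not pass the threshold over all genes. The 4 knockout libraries stood at 0, 44.4, 51.1 and 0 CPM, against 119 to 487 in the 7 WT libraries. With technical runs summed, the groups did not overlap. The middle run of WT CILP replicate 1 alone held 1 count in 85470 (11.7 CPM on run totals), within the knockout range. The fitted difference was -3.12 ± 1.13 (unadjusted p = 0.00669, adjusted p = 0.247, edgeR), and 0.501% of genes were called. DESeq2 called 0 members and limma-voom called Ikzf3 (-3.32, adjusted p = 0.0279). The 2 libraries at 0 were the shallow ones, with 44089 and 49365 counts, and they had the highest erythroid and megakaryocyte (1.2 and 3.3%) and myeloid (0.916 and 0.693%) marker shares of the group, whose part in the result was not tested. Innate lymphoid progenitor markers made up 0.0726, 0.15, 0.449 and 0.075% of counts in the 4 knockout libraries against 0.255 to 0.632% in WT CILP. That list includes Tcf7 and Id2, so the targeted gene's own counts are part of the share. Group 2 markers made up 0.0159, 0.0474, 0.121 and 0.0223% against 0.118 to 0.403%. Gata3 stands in both lists, at 338 ± 272.1 CPM in the knockout and 2120 ± 1231 in WT CILP. Of 6 group 2 markers edgeR called 1 higher and 0 lower, with a median log2 difference of -0.36 against -0.32 over all genes. The part of these was not tested either. The deeper knockout library held 14 Ikzf3 counts in 432561. Ikzf2 stood at 1179.7, 1819.3, 599.9 and 302.4 CPM and overlapped WT CILP (-0.92 ± 0.56, adjusted p = 0.555), and Ikzf1 averaged 331 CPM against 311.3 (adjusted p = 1).

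In the other populations without Tcf7 no member was called. In CLP the mean Ikzf1 level was 545.7 CPM and that of Ikzf2 44.4 (n = 5), against 551 and 45.51 in WT. There 0% of genes were called by edgeR, with 713 at an unadjusted p under 0.05, and no member reached that level. DESeq2 called 1 gene and limma-voom 8, with 0 members in each. Ikzf3 had 3 counts in 1 of the 5 libraries and 0 in the others. In ILC2P the 2 knockout libraries stood at 461.1 and 742.5 CPM for Ikzf2 and at 299.3 and 174.7 for Ikzf3. After TMM both members were within the WT range, and 2.57% of genes were called. On library totals Ikzf2 in knockout replicate 1 was at 226.1 CPM, below the lowest WT ILC2P library (377.8), and Ikzf3 was at 146.8. Replicate 1 of the knockout libraries drew 19.7% of its counts from plasma cell markers, and replicate 2 held 0.661% from mature T cell markers. Plasma cells and T cells also express Ikaros family genes, and their part in these levels was not tested. Ikzf5 was at 0 in both, with 0 of 500797 counts, and in WT ILC2P it had counts in 4 of 8 libraries (unadjusted p = 0.0231, adjusted p = 0.242, edgeR). DESeq2 and limma-voom called 0 members here.

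In CILP without Id2, Ikzf3 was at or near 0. The 2 libraries held 0 and 1 count, or 0 and 4.5 CPM, against 119 to 487 CPM in WT CILP with technical runs summed. The middle run of WT CILP replicate 1 alone was at 11.7 CPM on run totals. Summed over the 2 knockout libraries, the share of counts was 1.1% of that in WT CILP (exact 95% interval 0.027 to 6%, counting error only). The fitted difference was -6.37 ± 1.93 (unadjusted p = 0.0013, adjusted p = 0.205, edgeR), where 0.0911% of genes were called. DESeq2 (-6.78, adjusted p = 0.0296) and limma-voom (-5.8, adjusted p = 5.07e-07) called it, as did edgeR on the 2 groups alone (-6.02, adjusted p = 0.0167). Within batch 1, which holds all Id2 knockout libraries, the difference was -5.98 (adjusted p = 0.0627).

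The other tested members were not called without Id2. Ikzf2 stood at 337 and 651.2 CPM in the knockout, just below the lowest WT CILP library (664.9), with a difference of -1.37 ± 0.78 (adjusted p = 0.828, edgeR). Ikzf1 stood at 606.7 and 565.3 CPM, above the highest WT library (515.7), with a difference of 0.79 ± 0.67 (adjusted p = 0.989). Ikzf1 made up 60.4 and 45.5% of the family's counts, above its share in every WT CILP library. In these 2 libraries innate lymphoid progenitor markers made up 0.0368 and 0.0294% of counts, below the 0.255 to 0.632% of WT CILP. That list includes Id2 and Tcf7, so the targeted gene's own counts are part of the share. Mast and basophil markers made up 0.676 and 0.378% against 0.00473 to 0.511%, so 1 of the 2 lay above the WT range. The part of this difference in make-up was not tested. In CLP without Id2, Ikzf1 stood at 613.2 and 655.4 CPM, Ikzf2 at 192.9 and 23.8, and Ikzf3 at 0 in both. The library with Ikzf2 at 192.9 had a CLP marker share of 0.633%, below the 0.879 to 1.72% of WT CLP. Dendritic markers made up 0.936 to 1.1% in these CLP libraries, against 0.0512 to 0.978% in WT CLP, and the part of either was not tested. No member was called there by any of the 3 tools, 1 had an unadjusted p under 0.05, and 0.0365% of genes were called. The single Id2 knockout ILCP library, with no replicate, stood at 345 CPM for Ikzf1, 158.5 for Ikzf2 and 18.7 for Ikzf3 (2 counts), and had 1.2% myeloid, 1.53% erythroid and megakaryocyte and 0.118% mature T cell marker counts (WT ILCP at most 0.0127% of the last), whose part was not tested.

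Whether the step from CLP to CILP itself depended on genotype was tested as an interaction. For Tcf7 the Ikzf3 step was smaller by -5.37 ± 1.82 on the log2 scale (adjusted p = 0.277, edgeR), a fit that rests on 3 counts in 1 knockout CLP library against 0 in WT CLP and so depends on the prior count. It was -3.04 (adjusted p = 1) without that library, when both CLP groups were at 0. Over all genes 0.0456% were called. For Id2 the Ikzf2 step differed by -3.04 ± 1.04 (adjusted p = 0.8), where 0.0365% of genes were called. Without Id2 knockout CLP replicate 1, which had 192.9 CPM, the Ikzf2 value was -0.94. No member was called in either interaction by edgeR or DESeq2, with 1 at an unadjusted p under 0.05 in each. The call limma-voom made was of Ikzf3 in the Id2 interaction. No fold is given for that gene, since both CLP groups were at 0.

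Genes for proteins that Ikaros factors work with were described from lists of partners. In CILP against CLP, edgeR called 0 of 12 tested NuRD subunits (1 at an unadjusted p under 0.05), with a median log2 difference of -0.08 against 0.06 over all genes. It also called 0 of 7 other corepressor and remodelling partners (1 at an unadjusted p under 0.05, median -0.47) and 0 of 5 parts of the CRL4 cereblon ligase (0 at that level, median 0.16). DESeq2 and limma-voom called 0 in each of these lists. From CILP to ILC2P the NuRD subunit Mta3 fell, from 131 ± 95.7 to 27.6 ± 25.8 CPM (-2.26 ± 0.72, adjusted p = 0.0457, edgeR), and Ddb1, the adaptor of the CRL4 ligase, fell from 722 ± 445 to 210 ± 248 (-1.95 ± 0.49, adjusted p = 0.0106). There the median over all genes was itself -0.55, and it moved to -0.23 with DESeq2's size factors and to -0.29 on library totals; under both of these 1 part of the ligase was still called and 0 NuRD subunits were, while DESeq2 called 1 NuRD subunit and limma-voom 3. In ILC2P against CLP, Mta3 (-2.95 ± 0.72, adjusted p = 0.00303, edgeR), Ddb1 (-1.53 ± 0.48, 0.0257) and the NuRD subunit Mbd3 (-2.04 ± 0.71, 0.0453) were lower, against a median of -0.43 over all genes. Of all genes, 11.5% were called there. In ILC2P without Tcf7, edgeR called Ddb1 higher than in WT (2.33 ± 0.67, adjusted p = 0.0341) in the 2 libraries with the plasma cell and T cell marker shares given above. That call was lost with DESeq2, with its size factors and on library totals, where the median over all genes moved from 0.19 to -0.37. EdgeR called 0 genes of the 3 partner lists in the other comparisons and both interactions.

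Genes known to be regulated by Ikaros or Aiolos, most of them early B lineage and recombination genes, were mainly lower in CILP than in CLP. Of 17 listed genes 12 were tested; 8 were called lower and 0 higher, where 4.31% of all genes were called, and the median difference was -3.91 (-3.92 with genes at 0 set at their bound, against 0.06 over all genes). The 8 genes were Blnk, an adaptor of the pre-B cell receptor, Syk, its kinase, Igll1 and Vpreb1, which form the surrogate light chain, Rag1, Rag2 and Dntt of antigen receptor recombination, and Flt3, a cytokine receptor of early progenitors. Flt3 stood at 3.72 ± 9.84 CPM in CILP and 401 ± 147 in CLP (-6.21 ± 0.88, adjusted p = 2.04e-07, edgeR). Rag1 stood at 28.5 ± 63.3 and 500 ± 150 (-4.24 ± 0.92, adjusted p = 0.00193). Blnk had 0 counts in all 7 CILP libraries against 558 ± 245 CPM in CLP, at least 251-fold lower (adjusted p = 2.89e-10). In ILC2P against CLP 6 of the 12 were called lower (median -3.2), where 11.5% of all genes were called. In CILP against a4b7_CLP 2 of 12, Flt3 and Blnk, were lower, where 2.35% of all genes were called. In a4b7_CLP against CLP 1 of the 12 was called lower, where 0.0456% of all genes were called. In ILC2P Blnk had 10 counts in 3 of 8 libraries and was called higher than in CILP, by at least 11-fold (adjusted p = 0.00637), the 1 gene of the 12 that edgeR called there. In CILP without Tcf7, 2 of the 12 were called higher than in WT CILP, where both had 0 counts: Igll1 at 103 ± 127 CPM (at least 46.3-fold, adjusted p = 0.0294, edgeR) and Blnk at 48.3 ± 66.1 (at least 21.7-fold, adjusted p = 0.0144). Each had counts in 2 of the 4 libraries, and 0.501% of all genes were called there. B lineage markers, a list that includes Igll1 and Vpreb1, made up 0.386, 0.0539, 0.047 and 0.0425% of counts there, against 0.000632 to 0.0428% in WT CILP, and their part was not tested. In ILC2P without Tcf7, Syk (3.71 ± 0.98, adjusted p = 0.0174, edgeR), Blnk (3.31 ± 0.98, 0.044) and Cd4 (5.03 ± 1.49, 0.044) were higher than in WT and Hes1, a target of Notch, was lower (0 against 101 ± 153 CPM, 0.0412), beside the plasma cell and T cell marker shares given above for these libraries. Of all genes, 2.57% were called in ILC2P without Tcf7. In CILP without Id2 edgeR called 0 of the 12, with 3 at an unadjusted p under 0.05, while DESeq2 called 1 lower and limma-voom 1 lower and 1 higher. Several of these genes mark CLP and were known to be low in CILP when the list was drawn up, so their count is a description. For CILP against CLP DESeq2 called 6 of the 12 lower, and limma-voom called 7 lower and 1 gene higher.

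**Figure D4:**
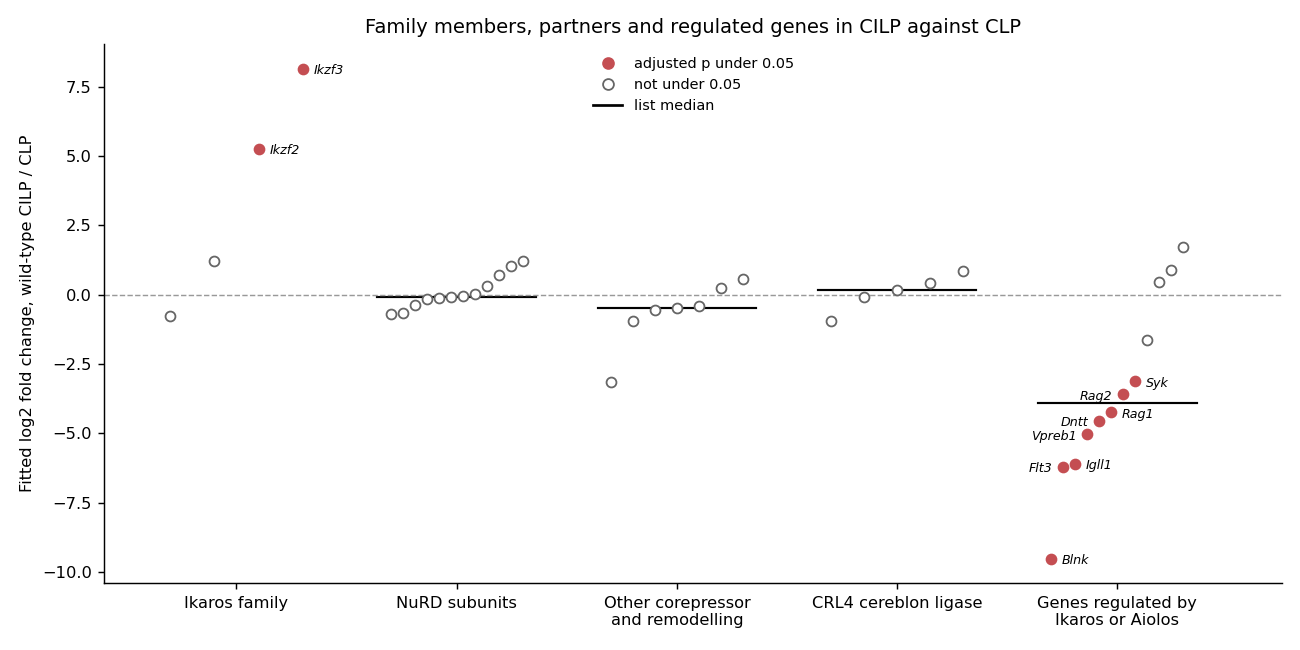
Fitted log2 fold changes of WT CILP against CLP (vertical axis) for each tested gene of the family and of 4 lists of partners and regulated genes; filled points have an adjusted p under 0.05 and bars are medians of the partner and regulated lists. Values of Ikzf3, Blnk and Igll1 are against a group at 0 counts and depend on the prior count. Ikzf2 (5.25) and Ikzf3 lie above 0, no partner gene is filled, and 8 of 12 regulated genes are filled and below 0.

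The genes whose levels most resembled each member's were found by Pearson's r of log2(CPM + 1) over the 47 libraries, given as a description because libraries of a group share depth and cell type. For Ikzf2 they were Lmo4 (r = 0.77), a LIM-domain cofactor, Gata3 (0.76), a transcription factor of T cells and ILC, the chemokine gene Ccl5 (0.73), Ahcyl2 (0.73) and Cxcr6 (0.72), a chemokine receptor. For Ikzf3 they were Rarg (0.87), a retinoic acid receptor, Cxcr6 (0.82), Lmo4 (0.78), Arg1 (0.78), an enzyme of arginine breakdown, and Skap1 (0.77), an adaptor of T cell signalling. Lmo4 averaged 106.8 ± 45.54 CPM in WT CLP, 2547 ± 602.2 in CILP and 562.6 ± 137.1 in ILC2P, the order that Ikzf2 also had. Cxcr6 was 0 in WT CLP, 67.84 ± 35.22 in CILP and 679.6 ± 692.7 in ILC2P. Rarg was 0 in WT CLP, 137.5 ± 154.2 in CILP and 144.8 ± 181.8 in ILC2P, and it stood at 0 and 22.61 CPM in Id2 knockout CILP. Over the 31 WT libraries alone, the first gene was Lmo4 for Ikzf2 (0.85) and Skap1 for Ikzf3 (0.88). Ikzf1 and Ikzf5 had weaker partners, led by Rbm5 (0.71) and Dnmt3a (0.63).

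**Figure D5:**
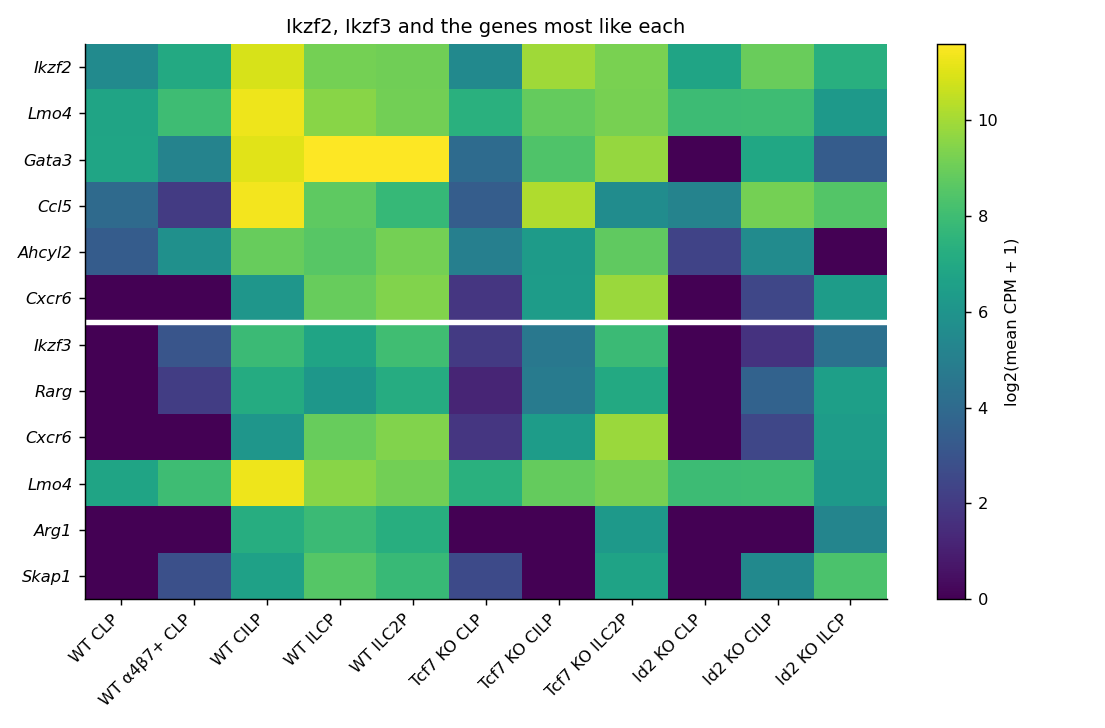
Group means as log2(mean CPM + 1) (colour) of Ikzf2, Ikzf3 and the 5 genes most like each (rows) in the 11 groups (columns). In the upper block Ikzf2, Lmo4 and Ccl5 are brightest in WT CILP (means 1865, 2547 and 2675 CPM), while Gata3, Ahcyl2 and Cxcr6 have higher means in ILC2P. In the lower block Ikzf3, Rarg, Cxcr6, Arg1 and Skap1 are at 0 in WT and Id2 knockout CLP, and Lmo4, which stands in both blocks, is not.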

How the data were processed

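RNA was measured by CEL-seq in samples of 100 sorted bone marrow cells. The 2 deposited tables, 1 for each batch, hold raw counts of genes named by Entrez number. The submitters' processing notes name CASAVA 1.8.2, build mm10, featureCounts, limma and edgeR (3.8.2 and 3.22.0). The aligner and the strand setting were not found in the sources used here. Of 70 samples, 4 technical repeats were summed with their parents, and 12 control wells, 6 libraries labelled Nfil and 1 CILP library marked as an outlier by the submitters were set aside, which left 47 libraries. Samples were grouped by the labels' genotype and cell type; replicate numbers follow the order of accessions and serve as names.

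Genes were filtered with edgeR 4.0.16 (R 4.3.3; filterByExpr, at least 10 counts and 15 in total), which left 10972, and fitted by quasi-likelihood on 11 group means plus batch, with TMM scaling, 35 residual degrees of freedom and a biological coefficient of variation of 109.7%. Groups with 1 or 2 libraries are taken to have the spread of the rest. Calls are at a Benjamini-Hochberg adjusted p under 0.05. A fold against a group at 0 is a bound against 3 counts over that group. Alternatives were DESeq2 1.42.0, its size factors, library totals, limma-voom (limma 3.58.1), no filter, no batch term, each batch, the compared groups alone, the outlier added, repeats left out, low depth left out, and each library left out. The edgeR procedure was run on simulated counts for WT CILP against CLP alone, with a common spread for all genes. That run did not test the small knockout groups.

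The members, the gene lists and the rules were chosen with earlier results of these data known. Named were all members and, from each other list, at most 4 genes with the smallest adjusted p among those called in CILP against CLP or ILC2P against CILP. Other genes that edgeR called were listed by name in most comparisons, and in the rest by their count. Likeness names the top 5 genes among those with a mean of at least 20 CPM in a group. Gene symbols and 30-base words used RefSeq and GENCODE M21 on GRCm38; 25275 identifiers (92.99%) matched.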

Additional observations from a re-analysis of the deposited data

Results flagged for a closer look

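A single library stood far from the rest of its group for 6 of 24 member and group pairs, by Dixon's test. The test's chance rate of about 1 in 20 holds for normally spread values and not for sparse counts, so it gives no comparison here. Ikzf2 in a4b7_CLP replicate 3 was at 426.3 CPM against at most 96.1 in the others. Ikzf5 in WT CILP replicate 4 was at 385.6 CPM, which was also the CILP library with the most Ikzf2. Ikzf3 in WT ILC2P replicate 3 was at 880 CPM, in a library of 26072 counts that also had the highest B lineage marker share of its group (0.207%, against at most 0.0362% in the others), whose part was not tested. The other 3 rest on few counts, with the remaining libraries of the group at 0, a pattern that the test always flags. They were Ikzf3 in a4b7_CLP replicate 4 (37.1 CPM, 6 counts), Ikzf3 in Tcf7 knockout CLP replicate 4 (14.3 CPM, 3 counts) and Ikzf4 in WT CILP replicate 2 (1.9 CPM, 1 count).

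Libraries left out of the comparisons were set against the control wells. The 12 wells together held 3 Ikzf1 counts in 23418 (128 CPM) and 0 counts of the other members, which allows up to 128 CPM of each. Single wells held 51 to 9439 counts, so this level is a share of few tags and no measured background of deeper libraries. Ikzf1 in the 6 libraries labelled Nfil, summed over populations, was above that level at 471 CPM, with 0 counts in both CILP libraries. In the CILP library called an outlier, Ikzf2 at 2697 CPM and Ikzf5 at 148.7 (7 counts) were above it.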

How the results depend on the processing

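Over the 14 comparisons, the number of members called was within 1.5 times the reported one in 135 of 146 alternative fits and in 187 of 188 counts with 1 library left out. In CILP against CLP it was 2 in all of them. In CILP against a4b7_CLP it was 2, and 1 in batch 1 alone. In ILC2P against CILP it was 1, and 0 with DESeq2, with its size factors in edgeR, on library totals without TMM and in batch 1 alone; leaving out 1 library gave 0 to 1, with 0 without WT CILP replicate 4. In ILC2P against CLP it was 2, and 1 when only the compared groups were fitted, because Ikzf3 failed the filter there. It rose from 0 to 1, always Ikzf3, in CILP without Id2 under DESeq2, limma-voom and a fit of the compared groups alone, in CILP without Tcf7 under limma-voom, and in the Id2 interaction under limma-voom. Apart from the filter, the cause of these changes was not tested.

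Of 484 alternative values of the 20 fold changes printed, 474 kept their direction and side of the threshold, 6 lost the call, 4 gained it and 0 changed sign. The other 36 fold changes, none called, changed sign in 92 of 838 alternative values. No paired analysis was possible because replicate numbers follow the order of accessions and pair no samples. In the shallowest library (WT ILC2P, 19322 counts) 1 count was 34.5 CPM, so an Ikzf5 level near the group mean of 32.86 CPM was not detectable there.

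The number of all genes called also depended on the tool. For edgeR, DESeq2 and limma-voom it was 10, 46 and 530 in CILP without Id2, 4, 2 and 25 in CLP without Id2, 4, 15 and 199 for the Id2 interaction, 55, 94 and 87 in CILP without Tcf7, 282, 151 and 188 in ILC2P without Tcf7, 0, 1 and 8 in CLP without Tcf7, and 5, 19 and 38 for the Tcf7 interaction. In WT it was 473, 383 and 721 for CILP against CLP, 258, 316 and 833 for CILP against a4b7_CLP, 41, 76 and 173 for ILCP against CILP, 53, 41 and 11 for ILC2P against ILCP, and 5, 13 and 27 for a4b7_CLP against CLP.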

Other observations

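Libraries outside the comparisons were read for the same genes, on library totals. In the CILP library that the submitters call an outlier, with 47089 counts, Ikzf1 held 4 counts, Ikzf2 127, Ikzf3 5, Ikzf4 1 and Ikzf5 7. Its Ikzf2 level of 2697 CPM lay within the range of the other WT CILP libraries of its batch.

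The 6 libraries labelled Nfil, all of batch 2, are given by library and not compared. The 2 CLP libraries held Ikzf1 at 425.8 and 787.4 CPM, Ikzf2 at 16 and 0, and Ikzf3 at 0. The ILC2P libraries held Ikzf1 at 227.7 and 684.7 CPM, Ikzf2 at 85.4 and 85.6 (3 counts each) and Ikzf3 at 455.4 and 28.5. One CILP library held 27 Ikzf2 counts in 48517 (556.5 CPM) with 0 counts of the other members, and the other had 296 counts in all and none from the family.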
